A study of Mus musculus with 15 samples.

Results

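Cytochrome P450 genes were followed in ear tissue of mice whose skin was inflamed with a phorbol ester. The set holds the protein-coding genes whose mouse symbol is Cyp and a digit, without Cyp51 and Cyp4f39, and counts 98 of the 48795 genes in the tables. Of these, 38 had a mean of at least 1 CPM (counts-per-million value) in at least 1 of 3 groups, and they are described here by family number. They were thus selected on group means of the same libraries, so a level above 1 CPM is a description and not a result.

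Messenger RNA was sequenced from ears of female mice aged 5 weeks in 15 libraries. By their labels, 6 libraries (PMA_1002) came from ears given phorbol 12-myristate 13-acetate (PMA), an activator of protein kinase C that inflames skin, and the peptide that the series title calls an innate defense regulator, whose effect on sterile inflammation the study addressed. Another 4 (PMA_ethanol) came from ears given PMA, with ethanol in the label. The 5 Control libraries carry the label control, and all 15 are assigned by their labels to the PMA ear inflammation model. No strain, dose, time or vehicle of control ears is named in the labels. Nor is it stated whether each library is a different mouse, and the p-values below cover spread among libraries only, part of which may be technical.

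P450 enzymes are haem proteins that insert an oxygen atom into lipids, hormones, vitamins and foreign compounds, with electrons from P450 reductase in the endoplasmic reticulum or from ferredoxin in mitochondria. Families 1 to 3 are known mostly for foreign compounds and families 4 and above mostly for fatty acids, sterols, retinoids and vitamin D, although members of family 2 also make fatty acid epoxides. Skin expresses its own set, among them enzymes that remove retinoic acid and others that activate vitamin D.

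The deepest library held 28585995 reads in genes (PMA_1002 library 5) and the shallowest 2656680 (PMA_ethanol library 3), so the last gives the least precise values. Defining markers of the epidermis, dermis, cartilage and muscle of an ear were present in every group, with only the cartilage gene Matn1 at 0, in all libraries of PMA_1002 and of Control. Markers of hair follicle varied within groups, from 22 to 1453 summed CPM in PMA_1002, 27 to 4550 in PMA_ethanol and 85.3 to 4462 in Control. Marker sums of neutrophils were 476 to 809, 1745 to 3517 and 112 to 140 CPM in the same order of groups, and those of keratinocytes 28023 to 31846, 14225 to 18867 and 25353 to 32806 CPM. In whole ear tissue, fewer cells of a type and less RNA per cell cannot be told apart.

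Promoter sequences are shown for both retinoic acid hydroxylases, which were higher in both PMA groups than in Control, and for a pair of genes with a well-known aryl hydrocarbon receptor (AhR) response that differed from each other in these ears. They come from RefSeq on GRCm38.p6, read 5′ to 3′ on the gene's strand, and hold no annotated exon base. In GENCODE M21 the Cyp1a1 gene starts further upstream, at 57687928, so its stretch lies within that annotated gene. Cyp26a1 is at chr19:37697558-37697797 (plus strand), Cyp26b1 at chr6:84593909-84594060 (minus strand), Cyp1a1 at chr9:57697363-57697612 (plus strand) and Cyp1b1 at chr17:79715062-79715311 (minus strand). Capitals mark a direct repeat of retinoic acid half-sites in Cyp26a1 and the AhR core GCGTG, on either strand, in Cyp1a1 and Cyp1b1.
Cyp26a1: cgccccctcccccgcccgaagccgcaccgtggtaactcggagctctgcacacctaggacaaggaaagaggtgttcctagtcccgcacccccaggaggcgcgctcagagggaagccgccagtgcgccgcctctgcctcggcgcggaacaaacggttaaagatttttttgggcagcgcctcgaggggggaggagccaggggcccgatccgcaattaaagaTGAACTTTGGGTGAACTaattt
Cyp26b1: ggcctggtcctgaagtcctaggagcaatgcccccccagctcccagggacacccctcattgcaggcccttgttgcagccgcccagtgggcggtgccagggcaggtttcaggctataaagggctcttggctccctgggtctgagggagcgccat
Cyp1a1: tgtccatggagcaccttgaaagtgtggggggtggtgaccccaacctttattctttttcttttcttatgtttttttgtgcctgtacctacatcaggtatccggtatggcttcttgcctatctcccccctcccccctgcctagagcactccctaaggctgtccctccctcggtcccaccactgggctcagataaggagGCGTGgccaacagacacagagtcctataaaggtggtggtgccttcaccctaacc
Cyp1b1: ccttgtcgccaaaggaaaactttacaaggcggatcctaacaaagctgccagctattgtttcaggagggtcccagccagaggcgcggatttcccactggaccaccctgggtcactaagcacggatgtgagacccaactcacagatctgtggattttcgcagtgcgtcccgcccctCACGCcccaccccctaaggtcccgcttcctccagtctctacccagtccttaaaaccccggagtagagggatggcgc

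Motifs were searched on both strands in the 250 bases before each RefSeq start, and 31 of the 38 genes matched a promoter there, with 33 promoters. A retinoic acid repeat was 2 half-sites in the same direction with 5 bases between. The half-sites were AGGTCA, the variant AGTTCA, the variant GGGTCA and the variant GGTTCA. Such a repeat lay in 29 of 32841 mouse promoters (0.0883%), and among the P450 promoters in that of Cyp26a1, from 32 to 16 bases before the start. The AhR core lay in 28.2% of all promoters and in 10 of the 33 here, those of Cyp1a1, Cyp1b1, Cyp20a1, Cyp2b10, Cyp2j12, Cyp2j9, Cyp2w1, Cyp46a1, Cyp4f16 and Cyp4v3. The AP-1 motif TGAGTCA, also known as the PMA response element, lay in 4.46% of all promoters and in those of Cyp3a13, Cyp4f16 and Cyp4f37. Letters in such a short window do not show that a factor binds, and a missing match says nothing of more distant sites.

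Of the 98 genes, 60 stayed under 1 CPM in every group, 36 of them with no read in any library. The 60 together held 223 reads, against 215712 reads in the 38 above the floor. Some subfamilies known from liver were nearly silent: none of 15 Cyp2c genes and none of 8 Cyp4a genes reached the floor. Cyp1a2 and Cyp7a1, the rate-limiting enzyme of bile acid synthesis, had no read. Other subfamilies did reach the floor, with 2 of 9 Cyp3a genes, 3 of 5 Cyp2b genes and 1 of 8 Cyp2d genes. Hepatocyte markers were also near 0, at 0.771 to 2.24 summed CPM in Control, with 4 of 8 at 0 there. The members just above the floor were Cyp2r1 with 1.05 CPM in PMA_ethanol and Cyp4f40 with 1.11 CPM in Control. Just under it were Cyp2ab1 with 0.906 CPM and Cyp8b1 with 0.339 CPM, both in Control, and Cyp21a1 with 0.244 CPM in PMA_ethanol.

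Levels of different genes were compared per kilobase (kb) of exon. Cyp26b1, a retinoic acid hydroxylase, stood first in PMA_1002 at 79.6 and in PMA_ethanol at 79.4 CPM per kb, and behind Cyp2b19 and Cyp2f2 in Control at 49.1. Cyp2b19, a keratinocyte enzyme that makes epoxides of arachidonic acid, was at 57.2, 59.7 and 64.8 CPM per kb in PMA_1002, PMA_ethanol and Control, and it led the order in Control. Cyp2g1, best known from olfactory mucosa, was at 64.7, 61.6 and 49.0, above Cyp2b19 in the means of both PMA groups. Also abundant were Cyp2f2, known from lung airway cells (36.2, 37.2 and 54.3), and Cyp2b10, a classical target of the receptor CAR (33, 53.6 and 33.4).

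**Figure D1:**
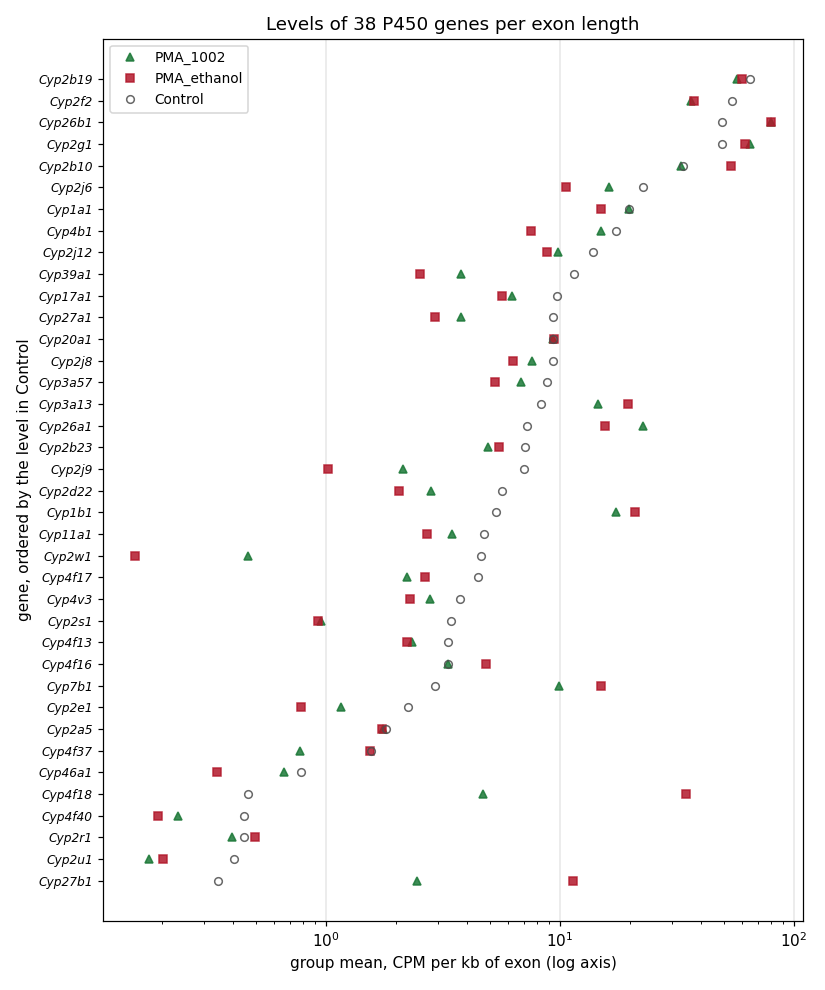
Mean level of 38 P450 genes in CPM per kb of exon (log axis) in PMA_1002 (triangles), PMA_ethanol (squares) and Control (open circles), ordered by the level in Control. The widest gaps between groups are seen for Cyp4f18, Cyp27b1 and Cyp2w1, while the markers of Cyp20a1 lie on one another.

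At the top, neighbouring members were not separate. Cyp2g1 varied by a coefficient of 63.4% in PMA_1002, 69.4% in PMA_ethanol and 79.2% in Control, so its place relative to Cyp26b1, Cyp2b19 and Cyp2f2 changes with the library. Cyp26b1 and Cyp2b19 varied less, by 5.93% and 9.45% in PMA_1002, 12.6% and 9.70% in PMA_ethanol and 5.52% and 16.6% in Control. Together the 38 genes above the floor took 1440 to 1777 CPM in PMA_1002, 1456 to 1845 in PMA_ethanol and 1307 to 1660 in Control, ranges that overlap.

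**Figure D2:**
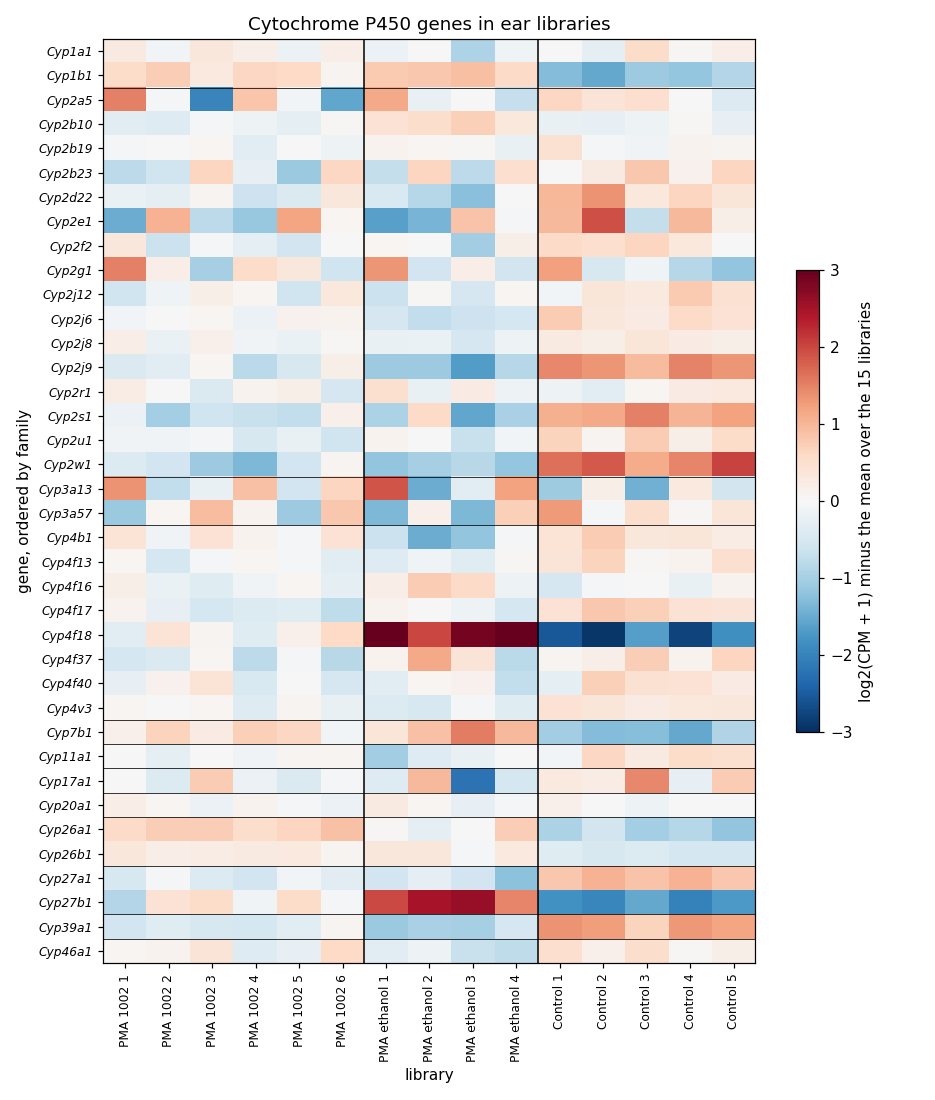
Log2(CPM + 1) of 38 P450 genes in 15 libraries, minus the gene's mean over all of them, with PMA_1002 left, PMA_ethanol in the middle and Control right. Cyp4f18 and Cyp27b1 are highest in the 4 PMA_ethanol libraries, Cyp2w1, Cyp2j9 and Cyp39a1 are highest in the 5 Control libraries, and Cyp2g1 and Cyp2a5 are high in library 1 of each group.

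The first comparison sets ears given PMA, with ethanol in the label, against Control, so PMA and ethanol cannot be told apart in it. Genes for retinoic acid removal (Cyp26a1, Cyp26b1), for oxysterol 7-hydroxylation (Cyp7b1) and Cyp1b1 rose, while most of the members of family 2 that changed, and the sterol enzymes Cyp27a1 and Cyp39a1, fell. Cyp4f18, known from neutrophils, and Cyp27b1, which makes active vitamin D, stood far higher in PMA_ethanol. Of 36 members in the fit (Cyp2r1 and Cyp4f40 had too few reads for it), 8 were called higher and 16 lower, at an adjusted p under 0.05 in edgeR. That is 66.7%, against 68.4% of all 14991 genes tested, of which 32.5% were higher and 35.9% lower, so the share of P450 genes that changed was near that of all genes. Their median log2 fold change was -0.56, against -0.07 over all genes. In 7 members PMA_ethanol was above Control without overlap in CPM and in 13 below it, 55.6% of them, against 57.8% of all genes (28.2% above and 29.6% below). These counts include Cyp4f18, Cyp27b1, Cyp2u1 and Cyp2w1, which passed the floor through 1 or 2 groups only, so that a difference was built into their choice. The 32 members above the floor in every group gave 6 higher and 14 lower (62.5%). Without overlap, PMA_ethanol was above Control in 5 of the 32 and below it in 12 (53.1%). For the 4 others, values and fold changes are given with no p, and the SE beside them is no test of a difference. With upper-quartile scaling, 33.6% of all calls were higher, against 47.5% with the scaling used throughout, while the members gave 7 higher and 19 lower.

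The second comparison sets PMA_1002 against PMA_ethanol. The labels do not say whether PMA_1002 ears also received ethanol, so peptide and ethanol cannot be told apart in it. Here 6 members were called higher and 6 lower, 33.3% of 36, against 35% of all genes (17% higher and 18% lower). The counts were 5 and 4 among the 32 members above the floor in every group. The groups did not overlap in CPM for 5 members, 13.9% of them, against 24.1% of all genes. Among the 32, this held for 3 (9.38%). With upper-quartile scaling 61.8% of all calls were higher, against 48.7%, and 8 members were called higher and 3 lower. In the third, PMA_1002 against Control, 6 members were called higher and 16 lower, 61.1%, against 55% of all genes (28.4% higher and 26.7% lower). Among the 32, 4 were higher and 14 lower (56.2%). PMA_1002 was above Control without overlap in 6 members and below it in 10, 44.4%, against 36.7% of all genes (20.2% above and 16.5% below). Among the 32, it was above in 4 and below in 8 (37.5%), near the share of all genes. Upper-quartile scaling made 34.6% of all these calls higher, against 51.5%. Each group serves in 2 of the 3 comparisons, so the comparisons share libraries and are not independent.

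**Figure D3:**
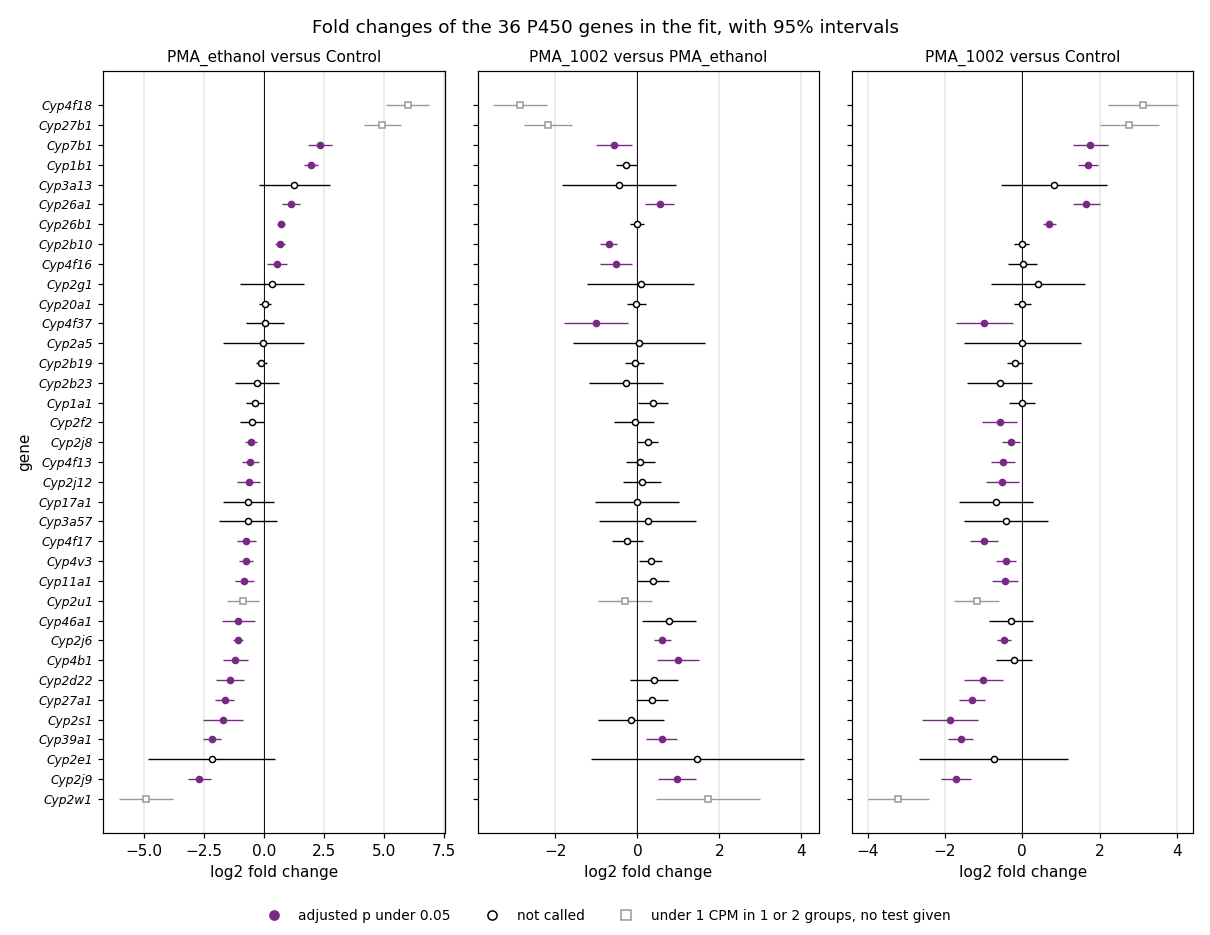
Log2 fold change of the 36 P450 genes in the fit, with 95% intervals, in the 3 comparisons, ordered by PMA_ethanol versus Control (left panel). Filled circles passed an adjusted p under 0.05, and open circles did not. Grey squares mark members under 1 CPM in 1 or 2 groups. A difference was built into their choice, so their intervals are no test of it. In the middle panel most intervals include 0.

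Family 1 holds enzymes that oxidise aromatic hydrocarbons and whose genes respond to AhR. Cyp1b1 (ENSMUSG00000024087, chromosome 17 from 79701537 to 79715061 on GRCm38) had 76.3 CPM at the lowest, 106 at the median and 120 at the highest in PMA_1002. It had 124, 125, 134 and 107 CPM in PMA_ethanol, against 28.6, 23.9, 33.2, 31.6 and 38.7 in Control. Every library of either PMA group was above every Control library, and the PMA groups overlapped. Cyp1b1 rose by 1.97 on the log2 scale in PMA_ethanol versus Control (SE 0.136, edgeR adjusted p = 1.42e-09) and by 1.70 in PMA_1002 versus Control (SE 0.126, edgeR adjusted p = 1.14e-08). The difference between PMA_1002 and PMA_ethanol was -0.27, with a 95% interval from -0.53 to -0.01 and an edgeR adjusted p of 0.103.

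Cyp1a1, the gene most often used as a readout of AhR, averaged 55.1 ± 7.64 CPM in PMA_1002, 41.4 ± 10.8 in PMA_ethanol and 54.9 ± 12.3 in Control (SD, n = 6, 4 and 5), and the groups overlapped. Its log2 fold change was -0.38 in PMA_ethanol versus Control (95% interval -0.76 to 0.00, edgeR adjusted p = 0.0704), 0.37 in PMA_1002 versus PMA_ethanol (adjusted p = 0.107) and -0.01 in PMA_1002 versus Control (adjusted p = 0.978). The first passed the threshold without Control library 2 (adjusted p = 0.0294) or without PMA_ethanol library 2 (0.042), at -0.61 with upper-quartile scaling (0.00642) and at -0.38 with the hair follicle marker level as a covariate (0.0112). With that covariate PMA_1002 versus PMA_ethanol was 0.57 (0.00257). Among 10 genes listed for the AhR pathway, 1 was called higher and 3 lower in PMA_ethanol versus Control, with a median of -0.10. Tiparp, an AhR target that dampens the receptor, rose by 2.27 (edgeR adjusted p = 1.76e-11). Ugt1a6a, a glucuronosyltransferase, fell by 2.6 (adjusted p = 2.40e-06) and Aldh3a1, an aldehyde dehydrogenase, fell by 1.67 (adjusted p = 0.000242). In PMA_1002 versus PMA_ethanol, 1 gene of this list was higher and 1 lower, and in PMA_1002 versus Control 1 was higher and 4 lower.

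Family 26 removes retinoic acid, the vitamin A derivative that controls epidermal differentiation. Cyp26b1 (ENSMUSG00000063415, chromosome 6 from 84571414 to 84593908) had 384 CPM at the lowest, 431 at the median and 457 at the highest in PMA_1002. Values were 457, 455, 345 and 442 CPM in PMA_ethanol and 283, 259, 272, 249 and 251 in Control. All PMA libraries were above all Control libraries, and the PMA groups overlapped. Cyp26b1 rose by 0.69 in PMA_ethanol (SE 0.0845, edgeR adjusted p = 1.38e-06) and by 0.70 in PMA_1002 (SE 0.0775, edgeR adjusted p = 1.19e-06), both versus Control. The log2 difference between PMA_1002 and PMA_ethanol was 0.00, with a 95% interval from -0.17 to 0.17.

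Cyp26a1 (ENSMUSG00000024987, chromosome 19 from 37697798 to 37701536), whose promoter above carries the direct repeat, ran from 40.2 to 51.2 CPM in PMA_1002 with a median of 44.9. It had 28.1, 22.3, 27.0 and 46.2 CPM in PMA_ethanol, against 13.7, 18.4, 13.1, 14.6 and 11.6 in Control. Here PMA_1002 was the highest group, although library 4 of PMA_ethanol reached its range. Cyp26a1 rose by 1.11 in PMA_ethanol versus Control (SE 0.177, edgeR adjusted p = 2.84e-05), by 1.65 in PMA_1002 versus Control (SE 0.163, edgeR adjusted p = 3.26e-07) and by 0.54 in PMA_1002 versus PMA_ethanol (SE 0.166, edgeR adjusted p = 0.0186). The last call was lost without PMA_ethanol library 1 (0.49, adjusted p = 0.0612), library 2 (0.39, 0.0739) or library 3 (0.49, 0.0534). Cyp26c1, the other gene of the family, held 7 reads in all libraries together.

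Genes that make, carry and read retinoic acid moved in both directions. Of 25 measured genes for retinoid handling, 7 were higher and 10 lower in PMA_ethanol versus Control, with a median of -0.27. The nuclear receptor Rxra fell by 1.51 (edgeR adjusted p = 1.57e-10). Adh7, a retinol-oxidising alcohol dehydrogenase, fell by 2.91 (adjusted p = 8.28e-10) and Dhrs9, a retinol dehydrogenase, rose by 3.24 (adjusted p = 6.57e-09). In PMA_1002 versus PMA_ethanol 5 were higher and 6 lower, with Rxra at 0.92 and Adh7 at 1.35 (both called) and Dhrs9 at -1.19 (called). In PMA_1002 versus Control 9 were higher and 8 lower.

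Vitamin D is activated by the mitochondrial hydroxylase Cyp27b1 after Cyp2r1, in the endoplasmic reticulum, has made its 25-hydroxy form, and Cyp24a1 degrades it. Cyp27b1 (ENSMUSG00000006724, chromosome 10 from 127048250 to 127053006) had 2.55 CPM at the lowest, 6.62 at the median and 8.58 at the highest in PMA_1002. It had 25.1, 35.7, 39.0 and 17.2 CPM in PMA_ethanol, against 0.867, 0.689, 1.28, 0.616 and 0.984 in Control. None of the 3 groups overlapped another, with PMA_ethanol highest and PMA_1002 between. The log2 fold change was 4.94 (SE 0.368) in PMA_ethanol versus Control, 2.76 (SE 0.361) in PMA_1002 versus Control and -2.18 (SE 0.281) in PMA_1002 versus PMA_ethanol.

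Cyp2r1 stayed near the floor in all groups, at 0.339 to 1.22 CPM with a median of 0.971 in PMA_1002. It had 1.64, 0.613, 1.24 and 0.715 CPM in PMA_ethanol and 0.694, 0.517, 0.963, 1.23 and 1.31 in Control, and the groups overlapped. Cyp24a1, a known target of the vitamin D receptor and named here for its role, held 1 read in PMA_1002, 1 in PMA_ethanol and 4 in Control. Of 7 measured genes listed for the vitamin D pathway, 2 were higher and 3 lower in PMA_ethanol versus Control. The coactivator Med1 rose by 0.59 (edgeR adjusted p = 2.15e-06), and the coactivator Ncoa1 fell by 0.38 (adjusted p = 0.000244), beside Rxra above. The vitamin D receptor Vdr, named for its role after its values were seen, rose by 0.57 (adjusted p = 0.00174). The counts were 2 higher and 1 lower in PMA_1002 versus PMA_ethanol, and 2 and 3 in PMA_1002 versus Control.

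**Figure D4:**
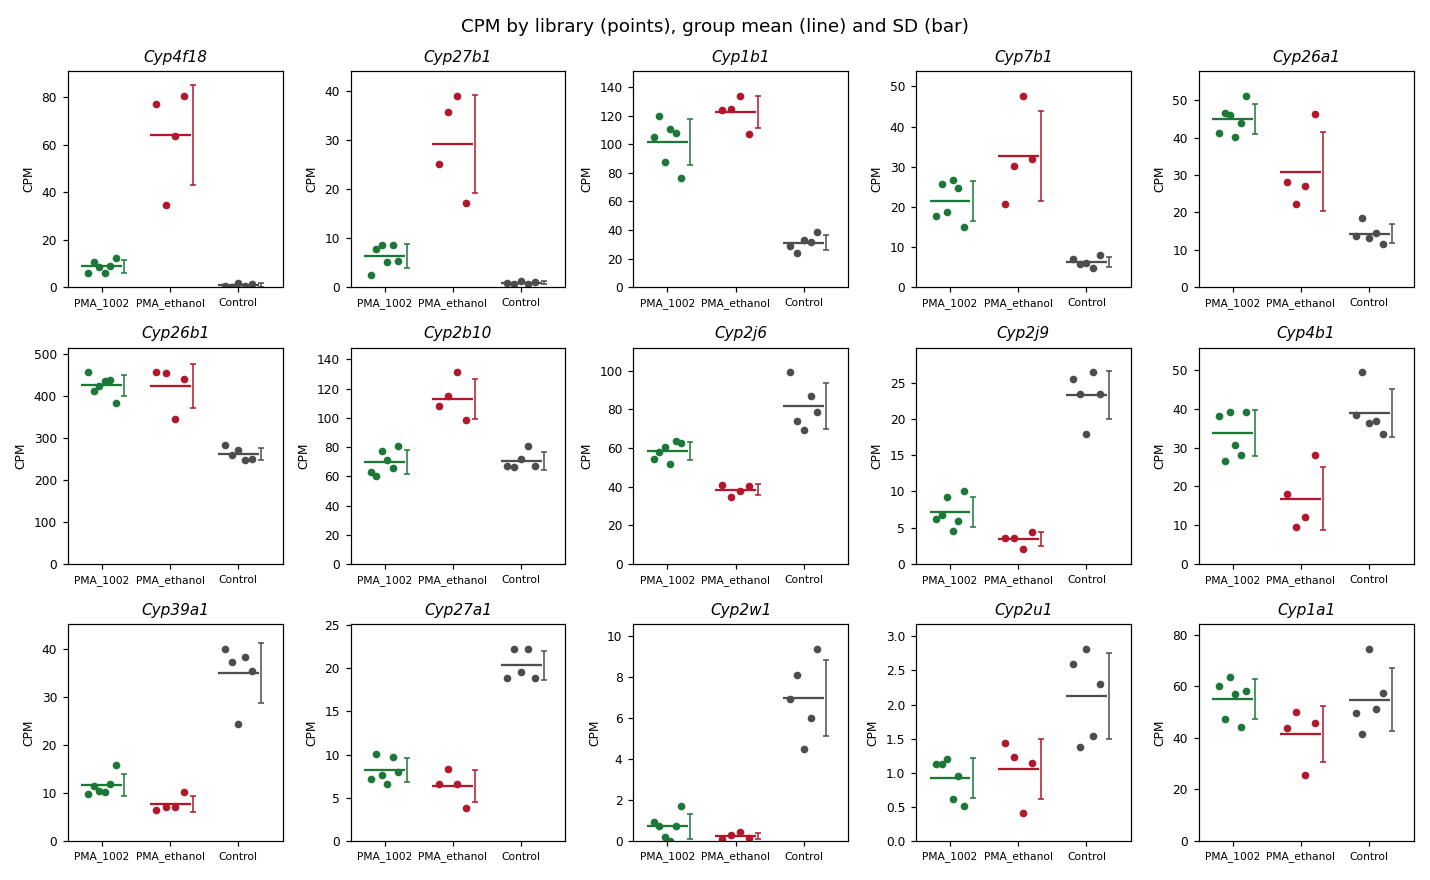
CPM of 15 P450 genes in each library (points), with the group mean (line) and SD (bar), for PMA_1002, PMA_ethanol and Control from left to right, each panel with its own axis from 0. Cyp4f18 and Cyp27b1 peak in PMA_ethanol, Cyp26a1 is highest in PMA_1002, and Cyp2b10, Cyp2j6 and Cyp4b1 lie closer to Control in PMA_1002 than in PMA_ethanol.

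Family 4 oxidises the far end of fatty acids and eicosanoids. Cyp4f18 (ENSMUSG00000003484, chromosome 8 from 71988482 to 72009626), which in mouse neutrophils inactivates the chemoattractant leukotriene B4, had 5.97 CPM at the lowest, 8.60 at the median and 12.4 at the highest in PMA_1002. It had 77.1, 34.6, 63.9 and 80.7 CPM in PMA_ethanol, against 0.520, 0.172, 1.85, 0.308 and 1.48 in Control. The 3 groups did not overlap. Log2 fold changes were 5.99 (SE 0.419) in PMA_ethanol versus Control, 3.13 (SE 0.422) in PMA_1002 versus Control and -2.86 (SE 0.305) in PMA_1002 versus PMA_ethanol.

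Between groups, neutrophil markers moved with Cyp4f18. All 12 measured markers were higher in PMA_ethanol than in Control (median 6.79) and in PMA_1002 than in Control (median 4.59), and all 12 were lower in PMA_1002 than in PMA_ethanol (median -2.32). PMA_ethanol library 2 was lowest of its group both in Cyp4f18, at 34.6 CPM, and in summed neutrophil markers, at 1745 CPM against 3091 to 3517 in the other libraries of the group. Library 3 of that group had the most marker CPM, but library 4 the most Cyp4f18, at 80.7 CPM. In PMA_1002, library 6 was highest in both, at 12.4 and 809 CPM. In Control, Cyp4f18 was highest in library 3, at 1.85 CPM, with 116 marker CPM in a range of 112 to 140. The part of neutrophil number in the level of Cyp4f18 was not tested. Cyp4f18 also overlaps Zfp961 on the opposite strand, by the start and end of the genes. It is not stated whether counting used strand, so reads in a stretch they share cannot be told apart. Whether their exons overlap was not checked.

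Cyp4b1 (ENSMUSG00000028713, chromosome 4 from 115624725 to 115647723), which also activates foreign compounds, had 26.5 CPM at the lowest, 34.5 at the median and 39.3 at the highest in PMA_1002. It had 18.0, 9.55, 12.0 and 28.0 CPM in PMA_ethanol and 38.5, 49.4, 36.4, 36.8 and 33.5 in Control. PMA_ethanol was below Control without overlap, and PMA_1002 overlapped both. Cyp4b1 fell by 1.2 in PMA_ethanol versus Control (SE 0.250, edgeR adjusted p = 0.000529) and rose by 0.99 in PMA_1002 versus PMA_ethanol (SE 0.242, edgeR adjusted p = 0.00524). PMA_1002 versus Control gave -0.21, with a 95% interval from -0.67 to 0.24.

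The other Cyp4f genes lie together on chromosome 17 and differed from Cyp4f18. Cyp4f13 averaged 10.4 ± 1.79 CPM in PMA_1002, 9.81 ± 1.45 in PMA_ethanol and 14.8 ± 2.84 in Control, and Cyp4f17 7.14 ± 1.69, 8.48 ± 1.74 and 14.3 ± 2.13. Both fell in PMA_ethanol versus Control, by 0.57 (edgeR adjusted p = 0.00691) and 0.75 (adjusted p = 0.00218), and in PMA_1002 versus Control, by 0.50 (adjusted p = 0.00977) and 0.99 (adjusted p = 0.000106). Cyp4v3, the mouse counterpart of the human retinal disease gene CYP4V2, averaged 10.6 ± 1.44, 8.68 ± 1.43 and 14.3 ± 0.761 CPM in PMA_1002, PMA_ethanol and Control, and fell by 0.75 (adjusted p = 0.000103) in PMA_ethanol and by 0.42 (adjusted p = 0.00581) in PMA_1002, both versus Control.

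Cyp4f16 went the other way, with 10.2 ± 1.65, 14.8 ± 4.33 and 10.1 ± 1.79 CPM in PMA_1002, PMA_ethanol and Control. It rose by 0.54 in PMA_ethanol versus Control (edgeR adjusted p = 0.0195) and fell by 0.53 in PMA_1002 versus PMA_ethanol (adjusted p = 0.035). The first call was lost without Control library 1 (adjusted p = 0.0515) or PMA_ethanol library 2 (0.34, adjusted p = 0.134), and with upper-quartile scaling (0.166). Cyp4f37 had 2.23 ± 0.856, 4.45 ± 2.87 and 4.48 ± 1.22 CPM, and fell in PMA_1002 versus PMA_ethanol by 1.01 (adjusted p = 0.0426) and versus Control by 0.98 (adjusted p = 0.0267). Without PMA_ethanol library 2, the difference of Cyp4f37 between PMA_1002 and PMA_ethanol was -0.37 (adjusted p = 0.475). Cyp4f40 ran from 0.169 to 1.2 CPM with a median of 0.539 in PMA_1002. It had 0.329, 0.745, 0.830 and 0.00 CPM in PMA_ethanol and 0.347, 1.72, 1.28, 1.23 and 0.984 in Control, and the groups overlapped.

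Oxysterols, the oxidised forms of cholesterol, are made and removed by families 7, 27, 39 and 46. Cyp7b1 (ENSMUSG00000039519, chromosome 3 from 18071950 to 18243338), which hydroxylates 25-hydroxycholesterol, had 14.9 CPM at the lowest, 21.7 at the median and 26.8 at the highest in PMA_1002. Values were 20.7, 30.1, 47.7 and 31.8 CPM in PMA_ethanol and 7.11, 5.86, 5.94, 4.78 and 8.03 in Control. Both PMA groups were above Control without overlap, and they overlapped each other. Cyp7b1 rose by 2.33 in PMA_ethanol versus Control (SE 0.229, edgeR adjusted p = 1.40e-07) and by 1.76 in PMA_1002 versus Control (SE 0.214, edgeR adjusted p = 3.82e-06). It fell by 0.57 in PMA_1002 versus PMA_ethanol (adjusted p = 0.0392), a call lost without PMA_ethanol library 2, 3 or 4 or PMA_1002 library 1, 3 or 6 (adjusted p 0.0591 to 0.166, the last at -0.36 without PMA_ethanol library 3).

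Ch25h, which makes 25-hydroxycholesterol and is no P450, averaged 31.0 ± 8.12 CPM in PMA_1002, 77.4 ± 20.3 in PMA_ethanol and 0.620 ± 0.183 in Control, and rose by 6.96 in PMA_ethanol versus Control (SE 0.304, edgeR adjusted p = 1.16e-11). Cyp39a1 (ENSMUSG00000023963, chromosome 17 from 43667425 to 43751431), which hydroxylates 24-hydroxycholesterol, ran from 9.68 to 15.9 CPM in PMA_1002 with a median of 10.9. It had 6.36, 7.14, 7.05 and 10.2 CPM in PMA_ethanol, against 39.9, 37.2, 24.3, 38.2 and 35.4 in Control. Control was highest without overlap. Cyp39a1 fell by 2.18 in PMA_ethanol (SE 0.184, edgeR adjusted p = 1.68e-08) and by 1.60 in PMA_1002 (SE 0.153, edgeR adjusted p = 2.23e-07), both versus Control, and rose by 0.59 in PMA_1002 versus PMA_ethanol (adjusted p = 0.0169). The last call was lost without PMA_ethanol library 1 (adjusted p = 0.0685) or library 2 (0.0552), and at 0.37 with the hair follicle marker level as a covariate (0.0828).

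Cyp27a1 (ENSMUSG00000026170, chromosome 1 from 74713574 to 74737892), the mitochondrial sterol 27-hydroxylase, had 6.59 CPM at the lowest, 7.77 at the median and 10.1 at the highest in PMA_1002. It had 6.58, 8.37, 6.64 and 3.86 CPM in PMA_ethanol and 18.9, 22.2, 19.6, 22.2 and 18.9 in Control, again with Control apart. Cyp27a1 fell by 1.65 in PMA_ethanol (SE 0.188, edgeR adjusted p = 6.27e-07) and by 1.30 in PMA_1002 (SE 0.160, edgeR adjusted p = 3.92e-06), both versus Control. PMA_1002 versus PMA_ethanol gave 0.36 (95% interval -0.03 to 0.74, adjusted p = 0.141), and 0.57 without PMA_ethanol library 2 (adjusted p = 0.0312). Cyp46a1, the cholesterol 24-hydroxylase best known from brain, averaged 2.17 ± 0.811, 1.12 ± 0.423 and 2.57 ± 0.552 CPM in PMA_1002, PMA_ethanol and Control, and fell by 1.07 in PMA_ethanol versus Control (adjusted p = 0.00706).

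Steroid synthesis is opened by Cyp11a1, the mitochondrial side-chain cleavage enzyme. It averaged 16.7 ± 1.59 CPM in PMA_1002, 13.0 ± 3.96 in PMA_ethanol and 22.7 ± 4.32 in Control. Cyp11a1 fell by 0.82 in PMA_ethanol (edgeR adjusted p = 0.000969) and by 0.44 in PMA_1002 (adjusted p = 0.0303), both versus Control, and the second call was lost without Control library 2, 4 or 5 or PMA_1002 library 2 or 4 (adjusted p 0.055 to 0.0833). Without PMA_ethanol library 4, PMA_1002 versus PMA_ethanol was 0.56 (adjusted p = 0.03), against 0.38 with all libraries (0.119). Cyp17a1, which leads towards androgens, spread widely within groups, at 17.2 ± 6.43, 15.6 ± 13.6 and 26.8 ± 13.3 CPM, and its change of -0.67 in PMA_ethanol versus Control did not pass (adjusted p = 0.246). That change was -1.43 without PMA_ethanol library 2 (adjusted p = 0.0156), -0.41 without PMA_ethanol library 3 (0.437) and -0.33 without Control library 3 (0.558).

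Of 15 measured sterol and steroid genes without a Cyp symbol, 2 were higher and 3 lower in PMA_ethanol versus Control. Beside Ch25h, Sult2b1, a cholesterol sulfotransferase of the epidermis, rose by 1.58 (edgeR adjusted p = 1.47e-06), and Hsd17b4, a peroxisomal oxidation enzyme, fell by 0.67 (adjusted p = 9.79e-07). The list gave 2 higher and 3 lower in PMA_1002 versus PMA_ethanol and 3 higher and 2 lower in PMA_1002 versus Control. Among lipid and xenobiotic nuclear receptors, several of which control P450 genes, 1 of 7 measured was higher and 5 lower in PMA_ethanol versus Control. Ppard, a fatty acid receptor, rose by 1.92 (adjusted p = 1.66e-10), and Pparg, of fat and sebaceous cells, fell by 1.25 (adjusted p = 9.29e-07). In PMA_1002 versus PMA_ethanol 4 of the 7 were higher and 1 lower, and versus Control 1 was higher and 3 lower.

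Family 2 is the largest, with 49 genes, 16 above the floor and 21 without a read. Of the 13 above the floor in every group, 1 was called higher and 6 lower in PMA_ethanol versus Control, against 32.5% higher and 35.9% lower of all genes. In PMA_1002 versus PMA_ethanol 2 were higher and 1 lower (17% and 18% of all genes), and in PMA_1002 versus Control 7 were lower (26.7% of all genes). The one higher in PMA_ethanol was Cyp2b10 (ENSMUSG00000030483, chromosome 7 from 25897620 to 25926624), with 60.4 CPM at the lowest, 68.4 at the median and 80.8 at the highest in PMA_1002. It had 108, 115, 131 and 98.6 CPM in PMA_ethanol and 67.3, 66.3, 71.5, 80.8 and 66.9 in Control. PMA_ethanol stood above both other groups, which overlapped. Cyp2b10 rose by 0.68 in PMA_ethanol versus Control (SE 0.0989, edgeR adjusted p = 1.15e-05; only 0.44 under upper-quartile scaling) and fell by 0.70 in PMA_1002 versus PMA_ethanol (SE 0.0945, edgeR adjusted p = 2.44e-05). PMA_1002 versus Control gave -0.02, with a 95% interval from -0.21 to 0.17.

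The Cyp2j genes, whose products make epoxides of arachidonic acid, lie side by side on chromosome 4, and 4 of 8 were above the floor. Cyp2j6 (ENSMUSG00000052914, 96516138 to 96553661) had 51.7 CPM at the lowest, 59.2 at the median and 63.8 at the highest in PMA_1002. It had 40.8, 34.6, 37.7 and 40.3 CPM in PMA_ethanol and 99.0, 73.9, 69.4, 87.1 and 78.5 in Control. No group overlapped another, with PMA_1002 between. Cyp2j6 fell by 1.09 in PMA_ethanol versus Control (SE 0.103, edgeR adjusted p = 6.92e-08), rose by 0.61 in PMA_1002 versus PMA_ethanol (SE 0.0993, edgeR adjusted p = 0.000145) and fell by 0.48 in PMA_1002 versus Control (SE 0.0891, edgeR adjusted p = 0.000259).

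Its neighbour Cyp2j9 (ENSMUSG00000015224, 96568429 to 96591578) had 4.53 CPM at the lowest, 6.50 at the median and 10 at the highest in PMA_1002. It had 3.62, 3.55, 2.07 and 4.43 CPM in PMA_ethanol and 25.5, 23.4, 17.9, 26.4 and 23.4 in Control, again without overlap. Cyp2j9 fell by 2.70 in PMA_ethanol versus Control (SE 0.225, edgeR adjusted p = 1.44e-08), rose by 0.97 in PMA_1002 versus PMA_ethanol (SE 0.218, edgeR adjusted p = 0.0023) and fell by 1.72 in PMA_1002 versus Control (SE 0.182, edgeR adjusted p = 6.57e-07). Cyp2j8 averaged 11.5 ± 1.54, 9.52 ± 1.11 and 14.1 ± 0.778 CPM in PMA_1002, PMA_ethanol and Control, and Cyp2j12 19.2 ± 5.19, 17.2 ± 4.43 and 27.0 ± 6.03. Both fell in PMA_ethanol versus Control, by 0.54 (adjusted p = 0.00106) and 0.63 (adjusted p = 0.0221), and the call of Cyp2j12 was lost without Control library 4 (0.0604), PMA_ethanol library 1 (0.0827) or library 3 (0.0592). Reads with several positions were kept apart from gene counts. The levels of near-identical genes in the Cyp2j, Cyp2b, Cyp2c, Cyp3a, Cyp4a and Cyp4f clusters are thus uncertain, also where few or no reads were counted.

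Other members of family 2 also fell in PMA_ethanol versus Control. Cyp2d22, the mouse counterpart of human CYP2D6, averaged 11 ± 2.98, 8.01 ± 3.40 and 22.1 ± 7.20 CPM in PMA_1002, PMA_ethanol and Control, and fell by 1.42 (edgeR adjusted p = 0.000308) in PMA_ethanol and by 1.01 (adjusted p = 0.00234) in PMA_1002, both versus Control. Cyp2s1, an epithelial member, averaged 4.69 ± 1.76, 4.57 ± 4.04 and 16.9 ± 2.59 CPM, and fell by 1.71 (adjusted p = 0.00101) and by 1.87 (adjusted p = 0.000285). Within PMA_ethanol, library 2 held 10.6 CPM of Cyp2s1 and the other libraries 1.66 to 3.07, and without library 2 the log2 fold change versus Control was -2.61 (adjusted p = 9.51e-07).

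Cyp2w1 (ENSMUSG00000029541, chromosome 5 from 139352617 to 139357033), in human known from colon tumours, was above the floor in Control alone. It ran from 0.00 to 1.69 CPM with a median of 0.708 in PMA_1002, had 0.110, 0.263, 0.415 and 0.143 CPM in PMA_ethanol and 6.94, 8.10, 4.49, 6.01 and 9.35 in Control. Control did not overlap the PMA groups, which overlapped each other. Log2 fold changes were -4.93 (SE 0.532) in PMA_ethanol versus Control, -3.21 (SE 0.374) in PMA_1002 versus Control and 1.72 (SE 0.604) in PMA_1002 versus PMA_ethanol. Cyp2u1, a fatty acid hydroxylase, had 0.508 to 1.2 CPM with a median of 1.03 in PMA_1002, 1.43, 1.23, 0.415 and 1.14 CPM in PMA_ethanol and 2.6, 1.38, 2.81, 1.54 and 2.30 in Control. Cyp2u1 overlapped between PMA_ethanol and Control and was lower in PMA_1002 than in Control without overlap, with log2 fold changes of -0.88 (SE 0.308) in PMA_ethanol and -1.18 (SE 0.279) in PMA_1002, both versus Control.

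Cyp2b19 and Cyp20a1 passed the test in none of the 3 comparisons. Cyp2b19 averaged 238 ± 22.5, 249 ± 24.1 and 270 ± 44.8 CPM in PMA_1002, PMA_ethanol and Control, and its log2 fold change in PMA_ethanol versus Control was -0.12 (95% interval -0.35 to 0.12, edgeR adjusted p = 0.365). With upper-quartile scaling it was -0.35 (adjusted p = 0.00768), and -0.34 in PMA_1002 versus Control (0.00697), against -0.18 (0.142) otherwise. Keratinocyte markers, where this gene is known to be expressed, were lower in PMA_ethanol than in Control for 9 of 10 genes (median -0.59), and higher in PMA_1002 than in PMA_ethanol for 9 of 10 (median 0.66). Cyp2f2 averaged 73.3 ± 19.4 CPM in PMA_1002, 75.3 ± 24.3 in PMA_ethanol and 110 ± 18.0 in Control. It fell by 0.59 in PMA_1002 versus Control (adjusted p = 0.0267), a call lost without Control library 1, 2 or 3 or PMA_1002 library 2, 4 or 5 (adjusted p 0.0516 to 0.0623). It gave -0.52 in PMA_ethanol versus Control (adjusted p = 0.063), which passed without Control library 5 (0.0383) or PMA_ethanol library 4 (0.0492), at -0.75 with upper-quartile scaling (0.0112), in DESeq2 (0.044) and with the hair follicle covariate (0.0312). Cyp20a1, an orphan with no assigned substrate, averaged 21.3 ± 2.42, 21.5 ± 3.33 and 21.3 ± 1.78 CPM, and the 95% interval of its change in PMA_ethanol versus Control ran from -0.21 to 0.28.

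Other members spread widely within groups. Cyp2g1 ran from 52.7 to 300 CPM in PMA_1002 with a median of 127, had 265, 69.9, 121 and 72.2 CPM in PMA_ethanol and 250, 75.8, 96.1, 57.5 and 45.8 in Control. The highest value of each group was in its library 1, and this also held for the neighbouring Cyp2a5, known for hydroxylating coumarin, with 10.2 CPM in PMA_1002, 7.67 in PMA_ethanol and 5.03 in Control. Cyp2a5 had no read in PMA_1002 library 3. In no comparison did either pass the test, and the 95% intervals of Cyp2g1 ran from -1.02 to 1.68 in PMA_ethanol versus Control and from -1.22 to 1.37 in PMA_1002 versus PMA_ethanol. The labels do not say whether libraries of the same number share an animal or a batch, and over all genes the deviations of library 1 from its group mean correlated at -0.24 between PMA_ethanol and Control, 0.58 between PMA_1002 and PMA_ethanol and -0.50 between PMA_1002 and Control.

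**Figure D5:**
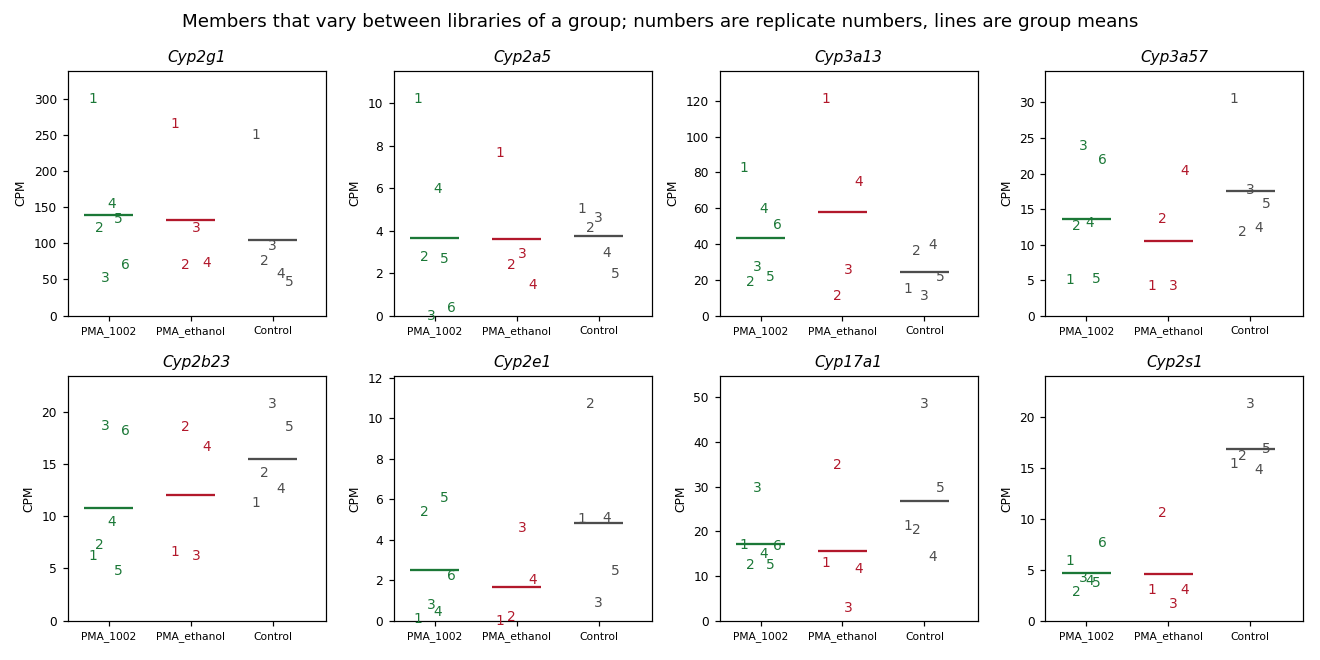
CPM of 8 P450 genes that vary between libraries of a group, with each library drawn as its replicate number and the group mean as a line, for PMA_1002, PMA_ethanol and Control from left to right. Cyp2g1 and Cyp2a5 are highest in library 1 of each group, and Cyp3a57 and Cyp2b23 are high together in PMA_1002 libraries 3 and 6. In Control, library 1 is highest for Cyp3a57 and lowest for Cyp2b23.

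Cyp3a13 and Cyp3a57 are the expressed members of family 3, the family best known for drug oxidation. Cyp3a13 averaged 43.3 ± 25.3, 57.9 ± 50.0 and 24.6 ± 12.6 CPM in PMA_1002, PMA_ethanol and Control, with 121 CPM in PMA_ethanol library 1 and 10.8 in library 2. It gave 1.27 in PMA_ethanol versus Control (95% interval -0.21 to 2.74), 1.65 without PMA_ethanol library 2 (edgeR adjusted p = 0.0314) and 0.60 without PMA_ethanol library 1 (adjusted p = 0.466). Cyp3a57 averaged 13.6 ± 8.03, 10.6 ± 7.88 and 17.6 ± 7.63 CPM, and Cyp2b23 10.7 ± 6.09, 12.0 ± 6.49 and 15.5 ± 4.0 CPM. In PMA_1002 libraries 3 and 6, Cyp3a57 had 23.9 and 21.9 CPM and Cyp2b23 18.6 and 18.1, the highest of that group. Within PMA_ethanol both genes were highest in libraries 2 and 4. Control did not follow this, as its library 1 had the most Cyp3a57 (30.5 CPM) and the least Cyp2b23 (11.3 CPM) of that group.

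Cyp2e1, which oxidises ethanol, had 0.102 to 6.07 CPM in PMA_1002, 0 to 4.56 CPM in PMA_ethanol and 0.882 to 10.7 CPM in Control. Its change of -2.19 in PMA_ethanol versus Control had a 95% interval from -4.85 to 0.46 (edgeR adjusted p = 0.129). With the hair follicle marker level as a covariate it was -2.31 (adjusted p = 0.00246). The same covariate moved PMA_1002 versus Control to -2.36 (adjusted p = 0.00145), against -0.74 without it (0.506), and PMA_1002 versus PMA_ethanol to -0.05 (0.97), against 1.45 (0.38). Cyp17a1 had 34.8 CPM in PMA_ethanol library 2 and 48.5 in Control library 3, where hair follicle markers summed to 4550 and 4462 CPM, and 2.90 in PMA_ethanol library 3, where they summed to 27. In PMA_1002 it was highest in library 3, at 29.7 CPM, where they summed to 115. The part of hair follicles in the level of Cyp17a1 was not tested.

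The partners of P450 enzymes moved in both directions. Por, the reductase that gives electrons to P450 enzymes of the endoplasmic reticulum, averaged 151 ± 11 CPM in PMA_1002, 255 ± 23.6 in PMA_ethanol and 138 ± 11.9 in Control. It rose by 0.89 in PMA_ethanol versus Control (SE 0.0836, edgeR adjusted p = 6.35e-08) and fell by 0.75 in PMA_1002 versus PMA_ethanol (SE 0.0796, edgeR adjusted p = 2.08e-06). Among 8 measured genes listed as redox partners, 3 were higher and 4 lower in PMA_ethanol versus Control. Of all genes, 32.5% were higher and 35.9% lower. The median of the list was -0.09, against -0.07 over all genes. Cytochrome b5 (Cyb5a) was lower by 0.74 (edgeR adjusted p = 7.02e-07). Fdx1l, a mitochondrial ferredoxin listed beside Fdx1, was higher by 0.48 (adjusted p = 0.000167), and whether it serves P450 enzymes here was not tested. The 8 genes gave 2 higher and 2 lower in PMA_1002 versus PMA_ethanol, and 1 and 2 in PMA_1002 versus Control.

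Enzymes that act after P450 enzymes were mostly lower in PMA_ethanol. Of 15 measured conjugation enzymes, 11 were called lower and 4 were not called versus Control, with a median of -0.64 against -0.07 over all genes, of which 35.9% were lower. Sult1a1, a sulfotransferase, fell by 1.73 (edgeR adjusted p = 3.93e-08), and the glutathione transferases Mgst2 and Gstt3 fell by 1.46 (adjusted p = 1.04e-07) and 1.41 (adjusted p = 5.96e-07). In PMA_1002 versus PMA_ethanol 5 of the 15 were higher and 10 were not called, with Sult1a1 at 0.72, Mgst2 at 0.46 and Gstt3 at 0.55, all called. In PMA_1002 versus Control 1 was higher and 10 lower. Keratinocyte markers moved the same way, 9 of 10 lower in PMA_ethanol than in Control and 9 of 10 higher in PMA_1002 than in PMA_ethanol, and their part in these counts was not tested.

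Of 6 measured genes of the fatty acid epoxide pathway, 2 were higher and 2 lower in PMA_ethanol versus Control. The epoxide hydrolase Ephx1 fell by 1.46 (edgeR adjusted p = 7.16e-09), while Ephx3, an epoxide hydrolase of the epidermis, rose by 1.58 (adjusted p = 6.35e-08) and the phospholipase Pla2g4e rose by 4.02 (adjusted p = 1.23e-06). The list gave 1 higher and 2 lower in PMA_1002 versus PMA_ethanol and 3 and 2 in PMA_1002 versus Control. The 2 P450 enzymes that carry no Cyp symbol both rose in PMA_ethanol versus Control: thromboxane synthase Tbxas1 by 0.95 (adjusted p = 0.00197) and prostacyclin synthase Ptgis by 0.43 (adjusted p = 0.0103). Tbxas1 fell by 1.10 in PMA_1002 versus PMA_ethanol (adjusted p = 0.00132).

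Between PMA_1002 and PMA_ethanol, some P450 genes above the floor in every group kept their calls without any 1 library. They were Cyp2b10, lower in PMA_1002, and Cyp2j6, Cyp2j9 and Cyp4b1, higher in PMA_1002. Their calls stood beside the keratinocyte and neutrophil markers above and beside 13 monocyte and macrophage markers, 8 of them lower and 2 higher in PMA_1002. The part of cell numbers in these calls was not tested. The call of Cyp4f16 in this comparison was lost without PMA_ethanol library 2 or 3 or PMA_1002 library 2, 3, 4 or 6 (adjusted p 0.0515 to 0.21, the last at -0.32 without PMA_ethanol library 2). That of Cyp4f37 was lost without Control library 4 or 5, PMA_ethanol library 2 or 3, or PMA_1002 library 1, 2, 4 or 6 (adjusted p 0.0502 to 0.475). Single libraries also made calls: Cyp4v3 at 0.33 (adjusted p = 0.0603) passed without PMA_ethanol library 3 (0.0226) or PMA_1002 library 4 (0.0265), and Cyp46a1 at 0.76 (0.0749) without PMA_ethanol library 2 (0.039) or PMA_1002 library 5 (0.0374), and both with upper-quartile scaling (0.0219 and 0.0451). In PMA_1002 versus Control, Cyp2j8 fell by 0.30 (adjusted p = 0.0318), Cyp2j12 by 0.52 (0.0398) and Cyp4f37 by 0.98 (0.0267), and each call rested on single libraries. That of Cyp2j8 was lost without Control library 1 or 3 or PMA_1002 library 2, 4, 5 or 6 (adjusted p 0.0545 to 0.0786). That of Cyp2j12 was lost without Control library 2, 4 or 5 or PMA_1002 library 1, 2 or 5 (0.0616 to 0.123). That of Cyp4f37 was lost without Control library 3 or 5 or PMA_1002 library 1, 4 or 6 (0.0525 to 0.0777). Other settings also ended calls. The hair follicle covariate did so in PMA_1002 versus PMA_ethanol for Cyp4f16 (adjusted p = 0.126) and Cyp4f37 (0.228), and in PMA_1002 versus Control for Cyp2f2 (0.056), Cyp2j12 (0.0645), Cyp2j8 (0.0951) and Cyp4f37 (0.14). Upper-quartile scaling did so in PMA_1002 versus PMA_ethanol for Cyp4f16 (0.0671), Cyp4f37 (0.0549) and Cyp7b1 (0.0637). Without a filter on low counts, Cyp7b1 and Cyp4f37 no longer passed in PMA_1002 versus PMA_ethanol (0.0613 and 0.0668), nor did Cyp2f2, Cyp2j12, Cyp2j8, Cyp4f37 and Cyp11a1 in PMA_1002 versus Control (0.0509 to 0.167). A fit of PMA_1002 and PMA_ethanol alone gave 0.0648 for Cyp7b1 and 0.074 for Cyp4f37.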

How the data were processed

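PolyA RNA of 15 ear libraries was sequenced from strand-preserving libraries, per the labels' protocols. The submitters' processing notes name the build GRCm38 and the tools STAR 2.5, HTSeq, FastQC 0.11.5 and MultiQC 0.8, and no source used here gives the strand option or annotation release. Each deposited file holds unnormalized read counts of 1 library. Reads given to no gene (28.5% to 32.85% of a table) stayed out of library sizes and tests. Symbols and exon lengths came from GENCODE M21 on GRCm38, where 48435 of 48795 identifiers matched, and genes without a symbol held 0.0602% of reads.

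Tests used edgeR 4.0.16 under R 4.3.3, with TMM scaling and filterByExpr by group (14991 genes kept). The quasi-likelihood model was robust, took in all 15 libraries and had group as its single term. P-values are two-sided, Benjamini-Hochberg adjusted over all genes tested, and called under 0.05 with no minimum fold. The common biological coefficient of variation was 0.185. CPM are relative to TMM-scaled library sizes, SE was derived from the F statistic, and marker sums add CPM. Libraries of 1 group differed by more than counting noise (chi-square per degree of freedom 2.927 to 27.02 over 31 pairs), so none was treated as a repeated sequencing of another. This does not show that each library came from a different mouse. Alternatives were RLE and upper-quartile scaling, DESeq2 1.42.0, no filter, only 2 groups, a replicate block, hair follicle level as a covariate, other floors and each library left out.

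Every member above the floor is named. Library values (of PMA_1002 the lowest, median and highest) are given for the 12 members with the smallest p in PMA_ethanol versus Control, the 6 with the smallest p in PMA_1002 versus PMA_ethanol and those above the floor in 1 or 2 groups, and values of other members chosen after they were seen. Up to 3 called genes of a pathway list are named, by the p in PMA_ethanol versus Control. The members, the lists and the tests were chosen with earlier results of these data known. Some listed genes were not measured in the fit and are not reported here.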

Additional observations from a re-analysis of the deposited data

Results flagged for a closer look

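In 6 of 114 groups of values, 1 library stood apart from the others of its group by Dixon's 95% criterion. That is 5.26%, and chance alone flags about 1 in 20 groups. Cyp39a1 gave 2 of them, with PMA_1002 library 6 high at 15.9 CPM (next 11.8) and Control library 3 low at 24.3 CPM (next 35.4), and both lie within the separation of the groups. Cyp17a1 was high in PMA_1002 library 3 at 29.7 CPM (next 16.9). Cyp2s1 was high in PMA_ethanol library 2 at 10.6 CPM (next 3.07), the library with the most hair follicle marker CPM of its group. In Control it was also highest where these markers were, in library 3 (21.3 and 4462 CPM). In PMA_1002 it was highest in library 6, at 7.63 CPM, where they were lowest, at 22 CPM. Cyp26b1 was low in PMA_ethanol library 3 at 345 CPM (next 442), the library with the fewest reads in genes. Cyp2g1 was high in Control library 1 at 250 CPM (next 96.1). Causes of these values were not tested.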

How the results depend on the processing

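Of 47 differences called over the 3 comparisons among members above the floor in every group, none was reversed by any of 22 alternatives. Those called in every alternative numbered 18 of 20 in PMA_ethanol versus Control, 3 of 9 in PMA_1002 versus PMA_ethanol (Cyp2b10, Cyp2j6 and Cyp4b1) and 12 of 18 in PMA_1002 versus Control. Of 50 member differences not called, 15 passed in at least 1 alternative, all with the sign they had, and 23 changed sign in at least 1 alternative without passing. Over all 36 members in the fit, those called higher in PMA_1002 versus PMA_ethanol numbered 2 in place of 6 with a replicate block. Those called lower numbered 3 in place of 6 with the block and with upper-quartile scaling. Over all genes the block gave 972 higher in place of 2553 and 1532 lower in place of 2691. Whether the numbers in the titles pair the libraries is not stated. Correlations of same-numbered deviations ran from -0.53 to 0.58, and so few libraries per group cannot settle it. The block also uses fewer libraries, and the part of pairing and of library number in its losses was not tested. Single libraries were also left out in turn, again over all 36 members, some of them selected through 1 or 2 groups only. PMA_ethanol versus Control gave 7 to 8 members higher and 14 to 18 lower (all genes 4684 to 5069 and 5049 to 5400). PMA_1002 versus PMA_ethanol gave 3 to 7 and 3 to 6 (all genes 1989 to 2575 and 2267 to 2699). PMA_1002 versus Control gave 6 to 6 and 11 to 16 (all genes 3943 to 4501 and 3532 to 4169). Upper-quartile scaling moved the median of all genes by -0.235, 0.078 and -0.158 in the 3 comparisons, and the cause was not tested. Depth limits members near 1 CPM, above all in PMA_ethanol library 3.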
